A study of Mus musculus with 8 samples.

Results

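Genes of heart macrophages and of the chemokines that attract monocytes were compared between hearts of mice homozygous for a mutant Pus1 and wild-type hearts. The genes were chosen by name as 4 monocyte chemokines (Ccl12, Ccl2, Ccl7 and Ccl8) and 6 macrophage markers (Cd68, Cd163, Mrc1, Lyz2, C1qa and Adgre1). They were chosen with earlier results of these data known. Of the 10 genes, 9 were among the 20972 that could be named on the array. Every probe whose accession mapped to one of them was used. The study measured RNA of 8 hearts, 4 mutant and 4 wild type, with 2 females and 2 males of each genotype. The mice were C57BL/6J after 5 backcross generations and 14 to 16 weeks old, and a frozen piece holding atrium and ventricle was used, per the labels. The series title calls the mutation a knockout of Pus1, a pseudouridine synthase gene, and the labels do not describe the allele. Mutant and wild-type hearts of the same sex were hybridised together in pairs on 4 Agilent 2-colour arrays, the female pairs on arrays 1 and 2 and the male pairs on arrays 3 and 4. The mutant heart was in the red dye Cy5 on arrays 1 and 3 and in the green dye Cy3 on arrays 2 and 4.

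The 4 chemokines are small secreted proteins of the monocyte chemoattractant family. Ccl2, Ccl7 and Ccl12 bind receptors on blood monocytes, above all Ccr2, and draw these cells into tissue. Mouse Ccl8 acts on the receptor Ccr8. The heart also holds resident macrophages, which clear debris and dying cells and can renew themselves within the tissue. Macrophages, fibroblasts and endothelial cells can all make these chemokines, so that chemokine RNA and macrophage marker RNA need not come from the same cells. In RNA of a whole piece of heart, fewer cells of a type and less RNA per cell cannot be told apart.

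In the assembly GRCm38.p6, Ccl2, Ccl7, Ccl11, Ccl12 and Ccl8 follow each other in this order among the protein-coding genes of chromosome 11. Promoter windows of RefSeq were at hand for 6 of the 10 genes and run from 250 bases before the gene's start to 50 bases after it, 300 bases in all. Of the chemokines only Ccl12 and Ccl8, those with the highest mean ratios of mutant over wild type, had a window, and both are shown. There was none for Ccl2 and Ccl7. The window of Mrc1 is shown because it was the marker whose groups did not overlap. The windows lie on the plus strand at chr11:82101595-82101894 for Ccl12, chr11:82114935-82115234 for Ccl8 and chr2:14229164-14229463 for Mrc1. Capitals mark matches, on either strand, to the TATA box TATAAA, to a loose NF-kappaB pattern of GGG and CC with 5 bases of any kind between them, to the AP-1 pattern TGANTCA and to the PU.1 core GAGGAA, where N is any base.
Ccl12: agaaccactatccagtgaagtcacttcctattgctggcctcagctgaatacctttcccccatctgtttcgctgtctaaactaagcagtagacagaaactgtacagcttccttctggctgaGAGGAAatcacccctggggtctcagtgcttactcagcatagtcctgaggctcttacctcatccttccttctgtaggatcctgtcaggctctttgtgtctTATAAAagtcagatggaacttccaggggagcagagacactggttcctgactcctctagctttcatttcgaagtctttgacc
Ccl8: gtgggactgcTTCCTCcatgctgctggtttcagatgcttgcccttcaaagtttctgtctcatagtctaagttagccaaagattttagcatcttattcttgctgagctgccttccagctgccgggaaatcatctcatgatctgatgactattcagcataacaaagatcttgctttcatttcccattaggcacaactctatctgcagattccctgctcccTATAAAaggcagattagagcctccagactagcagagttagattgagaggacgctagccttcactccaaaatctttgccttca
Mrc1: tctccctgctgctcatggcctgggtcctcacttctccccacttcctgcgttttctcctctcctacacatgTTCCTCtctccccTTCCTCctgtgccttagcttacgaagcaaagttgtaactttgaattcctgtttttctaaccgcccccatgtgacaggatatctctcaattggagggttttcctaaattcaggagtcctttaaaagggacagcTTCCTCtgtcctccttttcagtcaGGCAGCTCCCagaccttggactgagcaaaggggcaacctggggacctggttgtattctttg
The Ccl12 and Ccl8 windows each held a TATA box, whose first base lay 31 and 32 bases before the start. Of all 32851 windows of this length 13.6% held TATAAA, 50.8% the NF-kappaB pattern, 7.81% the AP-1 pattern and 28.3% the PU.1 core. Ccl12 and Ccl8 each had 1 match to the PU.1 core and none to the NF-kappaB or AP-1 patterns. Mrc1 had 3 matches to the PU.1 core, all on the opposite strand, and 1 to the NF-kappaB pattern. These matches describe the letters in the windows and are not binding sites.

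The targeted gene was checked first. Pus1 stood at 7.06, 7.56, 7.24 and 7.13 in mutant hearts 1 to 4, against 9.22, 9.24, 8.92 and 9.01 in wild-type hearts 1 to 4, on the normalized log2 intensity scale used for all levels here. The groups did not overlap, and all 8 hearts matched their label. The share of all probes that the scanner software called well above background ran from 44.7% to 54.6% in mutant hearts and from 46.3% to 53.8% in wild-type hearts. All 6 cardiomyocyte marker genes looked for (Myh6, Tnnt2, Tnni3, Actc1, Ryr2 and Pln) were measured. The number of arrays limits the precision, since each genotype had 4 hearts and each sex 2 arrays.

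Of the 10 genes, 8 were measured, all 4 chemokines and 4 of the 6 markers. No probe had an accession that the RefSeq table gives to Cd68, a lysosomal protein of macrophages, so that its level was not analysed here. Some array accessions are not in that table. A probe with such an accession may be that of Cd68, and it was not mapped to a gene. Cd163, a scavenger receptor for haemoglobin on resident macrophages, had 1 probe, which was not well above background in any of the 8 hearts. Its measured levels were 6.70, 7.07, 6.71 and 6.77 in mutant hearts and 7.0, 6.86, 6.81 and 6.44 in wild-type hearts, and no fold is given for it. The other 8 genes had a probe that cleared the background flag in 4 hearts or more, the requirement for being counted as measured, and none of their spots was saturated.

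In 3 of 4 mutant hearts each of the 4 chemokines stood above every wild-type heart. Mutant heart 2 lay among or below the wild-type hearts. For Ccl7 the order rested on 8.08 in mutant heart 4 against 8.05 in wild-type heart 4. Pearson correlations among the 4 were 0.84 to 0.95, so that they are not 4 separate observations. The share of all features with such an order was not counted. The mean ratios of mutant over wild type were between 1.28-fold and 1.63-fold, and none passed the test across all features. With the processed signals the mean log2 ratios were 1.42 for Ccl12 and 0.76 for Ccl7, against 0.70 for Ccl12 and 0.36 for Ccl7 with background correction by normexp. Ccl12, a mouse chemokine that acts through Ccr2, had levels of 8.42, 7.27, 8.59 and 8.07 in mutant hearts 1 to 4, against 7.18, 7.13, 7.52 and 7.73 in wild-type hearts 1 to 4. In 7 of the 8 hearts its spot was well above background, the exception being wild-type heart 1. The ratios were positive on all 4 arrays, at 1.25, 0.14, 1.08 and 0.33 on the log2 scale, a mean of 0.70 (SE 0.11, SD of the 4 ratios 0.54).

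Ccl8, which in mice acts on the receptor Ccr8, had levels of 9.03, 7.79, 8.45 and 8.63 in mutant hearts 1 to 4, against 7.58, 7.64, 7.78 and 8.08 in wild-type hearts 1 to 4. Mutant heart 2 was lower than wild-type heart 4 and level with wild-type heart 3, and the other mutant hearts were above all wild-type hearts. Array by array the log2 ratios stood at 1.45, 0.15, 0.67 and 0.55, with a mean of 0.70 (SE 0.18, SD 0.54). With an array left out, the fit with a dye term weighs both dye orientations equally and does not give the plain mean of the remaining ratios. Its lowest value for Ccl8 was 0.51, without array 1.

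Ccl2, the best known ligand of Ccr2, had levels of 9.08, 7.80, 9.03 and 8.89 in mutant hearts 1 to 4, against 7.73, 8.14, 8.17 and 8.51 in wild-type hearts 1 to 4. Only wild-type heart 1 was below mutant heart 2. The log2 ratios of Ccl2 were 1.35, -0.34, 0.86 and 0.38, a mean of 0.56 (SE 0.18, SD 0.72). The fitted value, with both dye orientations weighed equally, ran from 0.38 without array 4 and 0.44 without array 1 to 0.74 without array 2. The Ccl2 probe was printed at 10 spots on every array. The spot ratios had an SD of 0.14, 0.08, 0.09 and 0.10 on arrays 1 to 4. On array 2 all 10 were negative, from -0.46 to -0.20, and on array 1 all were positive, from 1.07 to 1.52. Spots of one array share their RNA and dyes, so that these SDs hold the error of the spots only, whereas the SD of 0.72 between arrays also holds the hearts and the dye orientation.

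**Figure D1:**
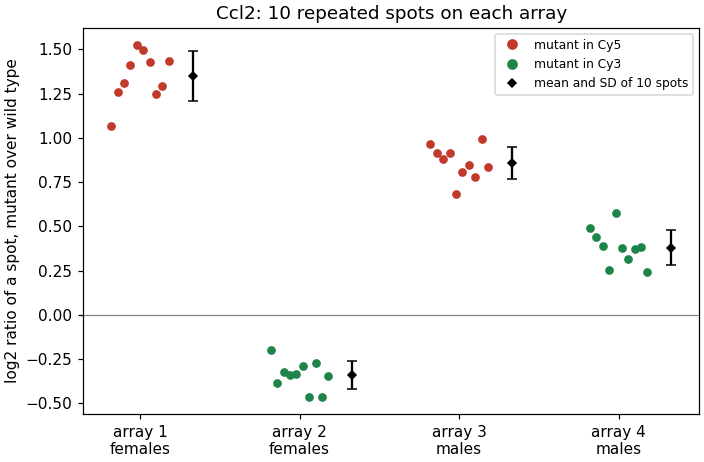
Log2 ratio of mutant over wild type (vertical axis) at each of the 10 Ccl2 spots on the 4 arrays (horizontal axis), with black diamonds and bars for the mean and SD of the 10 spots. The spots of an array lie close together, around means of 1.35, -0.34, 0.86 and 0.38, and the ranges of array 2 and array 1 are far apart.

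Ccl7, which binds Ccr2 and other receptors of monocytes and granulocytes, had levels of 8.18, 7.21, 8.27 and 8.08 in mutant hearts 1 to 4, against 7.30, 7.23, 7.73 and 8.05 in wild-type hearts 1 to 4. Mutant heart 2 was the lowest of all 8 hearts, and the spot of wild-type heart 1 did not clear the background flag. The log2 ratios of Ccl7 were 0.89, -0.02, 0.54 and 0.03, a mean of 0.36 (SE 0.11, SD 0.43), the smallest of the 4 chemokines.

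**Figure D2:**
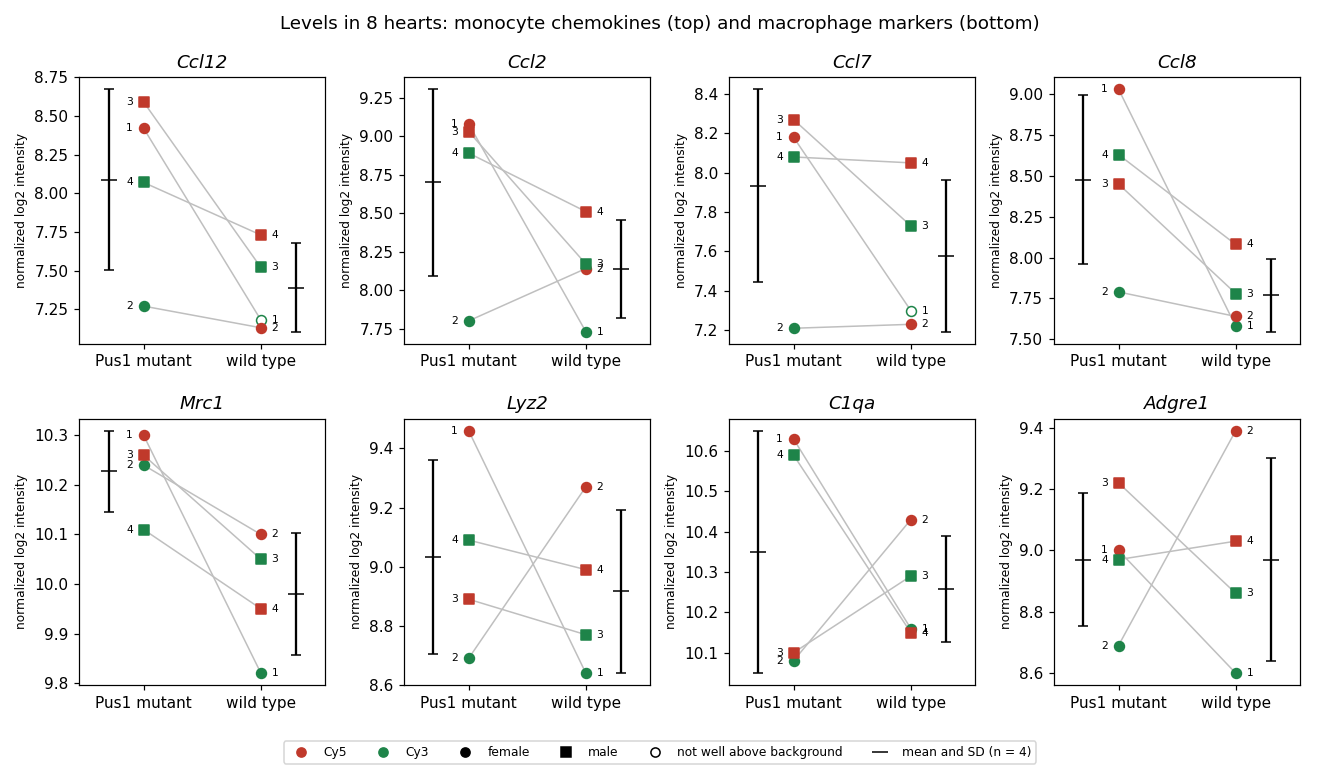
Normalized log2 intensity (vertical axes) of the 8 measured genes in mutant hearts (left) and wild-type hearts (right), with grey lines joining hearts of one array, numbers for arrays, colours for dyes, shapes for sexes, open points for spots not well above background, and bars for the mean and SD. In the 4 chemokine panels 3 mutant hearts lie above all wild-type hearts and mutant heart 2 does not, and of the markers only Mrc1 has groups that do not overlap.

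No chemokine passed the threshold of adjusted p 0.05 (limma on the 4 within-array ratios, Benjamini-Hochberg over 21792 features, adjusted p = 1 for each). In that comparison 0% of all features passed in either direction. Pus1 itself, with the smallest p of all features and a level 3.61-fold lower in mutants, also had an adjusted p of 1 in limma. Before adjustment all 4 chemokines had p under 0.05 and a higher level in mutants, against 0.468% of all features. The genes were chosen with earlier results of these data known and the 4 run closely together, so that this contrast is a description only. The 95% intervals of the mean log2 ratio were 0.41 to 0.99 for Ccl12, 0.23 to 1.18 for Ccl8, 0.09 to 1.04 for Ccl2 and 0.05 to 0.67 for Ccl7. These intervals and the p-values above come from a fit with a dye term and leave out the part of the spread that follows the dye. The median of the 4 mean ratios was 0.63, beside -0.01 for all features, and the array medians were 1.30, 0.06, 0.77 and 0.36. A positive ratio on all 4 arrays was seen for 2 of the 4, Ccl12 and Ccl8, and for 2.34% of all features.

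The chemokine ratios were larger where the mutant heart was in Cy5. For all 4 chemokines both ratios with the mutant in Cy5 exceeded both ratios with the mutant in Cy3, which was so for 21.6% of all features. The means with the mutant in Cy5 and in Cy3 were 1.16 and 0.24 for Ccl12 and 1.06 and 0.35 for Ccl8. They were 1.10 and 0.02 for Ccl2 and 0.71 and 0.01 for Ccl7. The dye term of the fit had p under 0.05 before adjustment for 3 of the 4, Ccl12, Ccl2 and Ccl7. Of all features 9.9% had such a p, and 3.85% had it with the ratio higher where the mutant was in Cy5. After adjustment the dye term passed for none of the 4 chemokines (limma, adjusted p from 0.462 to 0.562). With 2 arrays per orientation, the dye and the particular hearts on those arrays cannot be told apart.

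**Figure D3:**
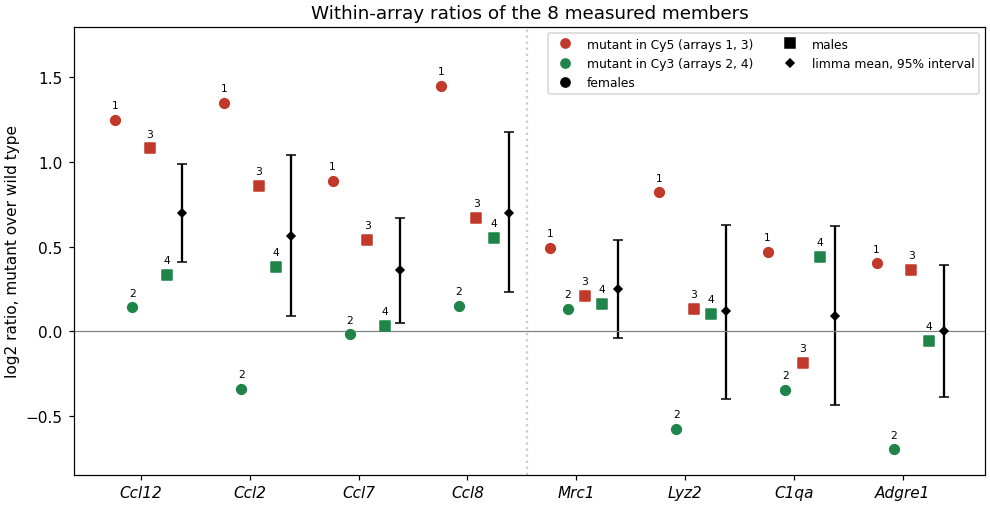
Log2 ratio of mutant over wild type (vertical axis) on each array for the 8 measured genes (horizontal axis), chemokines left of the dotted line, with colours for the dye of the mutant heart, shapes for the sex, and black diamonds and bars for the limma mean and its 95% interval. The intervals of the 4 chemokines lie above 0 and those of the 4 markers include 0, none of these genes passing after adjustment over all features.

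Of the 4 measured macrophage markers none passed the threshold in limma (adjusted p = 1 for each) and none had an unadjusted p under 0.05, which 1.02% of all features had. Their mean log2 ratios had a median of 0.10, with array medians of 0.48, -0.47, 0.17 and 0.13. Mrc1, the mannose receptor of resident macrophages, had levels of 10.30, 10.24, 10.26 and 10.11 in mutant hearts 1 to 4, against 9.82, 10.10, 10.05 and 9.95 in wild-type hearts 1 to 4. The groups did not overlap, which was so, with mutants above, for 0.34% of all features. The log2 ratios of Mrc1 were 0.49, 0.13, 0.21 and 0.16, a mean of 0.25 (SE 0.11, unadjusted p = 0.0774 in limma), or 1.19-fold.

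Lyz2, the lysozyme of macrophages and neutrophils, had levels of 9.46, 8.69, 8.89 and 9.09 in mutant hearts, against 8.64, 9.27, 8.77 and 8.99 in wild-type hearts. The highest and the second highest level belonged to different genotypes, and the groups overlapped. Its ratios were 0.82, -0.58, 0.13 and 0.10, a mean of 0.12 (SE 0.19). The fitted value, with both dye orientations weighed equally, turned to -0.06 without array 1 and without array 4. Lyz1, a closely related lysozyme gene, had ratios of 0.87, -0.10, 0.08 and 0.03, and whether either probe also binds the other RNA was not tested.

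C1qa, a chain of complement component C1q made mainly by macrophages, had levels of 10.63, 10.08, 10.10 and 10.59 in mutant hearts, against 10.16, 10.43, 10.29 and 10.15 in wild-type hearts. Mutant hearts were both the 2 highest and the 2 lowest of the 8. The mean log2 ratio was 0.09 (SE 0.20). The fitted value, with both dye orientations weighed equally, turned to -0.07 without array 1 and -0.10 without array 4. The other chains of the same protein, C1qb and C1qc, had means of 0.00 (SE 0.21) and 0.05 (SE 0.13).

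Adgre1, which encodes an adhesion receptor widely used as a surface marker of mouse macrophages, had levels of 9.0, 8.69, 9.22 and 8.97 in mutant hearts, against 8.60, 9.39, 8.86 and 9.03 in wild-type hearts by its brighter probe. Wild-type hearts were both the highest and the lowest. The ratios were 0.40, -0.70, 0.36 and -0.06, a mean of 0.00 (SE 0.15, 95% interval -0.39 to 0.39). A dimmer probe of the gene gave 0.18, -0.37, 0.16 and 0.25, a mean of 0.05, and the probes differed in sign on array 4. Of the 4 markers, only Mrc1 had a positive ratio on all 4 arrays. For 3 of the 4, C1qa being the exception, both ratios with the mutant in Cy5 exceeded both with the mutant in Cy3.

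As a description over the 8 hearts, which share arrays in pairs, the levels of the 4 chemokines ran more closely together than those of the markers. Pearson correlations were 0.84 to 0.95 among the 6 pairs of chemokines, 0.27 to 0.81 among the 6 pairs of markers and 0.24 to 0.65 between a chemokine and a marker. The corresponding Spearman correlations were 0.76 to 0.93, 0.14 to 0.71 and 0.10 to 0.74. The levels of the 4 chemokines summed to 1700, 747, 1570 and 1410 in mutant hearts 1 to 4, against 706, 772, 902 and 1110 in wild-type hearts 1 to 4, in linear intensity. The sums of the 4 markers were 4060, 3120, 3400 and 3690 in mutant hearts, against 2830, 3770, 3210 and 3160 in wild-type hearts. Mutant heart 2 was the lowest mutant heart by both sums.

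Among 13509 named genes outside the lists used here, those whose levels over the 8 hearts were most like the mean of the chemokines were Nacc2 (Pearson correlation 0.979), Prpf19 (0.976), Npepps (0.972), Cox18 (0.959) and Ndufb3 (0.959). They encode a transcriptional regulator, a ubiquitin ligase of the spliceosome, an aminopeptidase, an assembly factor of cytochrome c oxidase and a subunit of respiratory complex I. Those most like the mean of the markers included Lypla1 (0.975), Stt3b (0.975), Myo1f (0.955) and Nt5c3 (0.949). Myo1f encodes a myosin of myeloid cells. With 8 hearts and this many genes, such values describe these hearts only.

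The second comparison asked whether the difference between genotypes differed between females and males. None of the 8 genes passed for the interaction of genotype and sex in limma, for which 9.34% of all features did, 9.21% with the higher ratio in females. That share was 0 of 21792 features in the fit with no dye term. Nor did any pass within females, where 0.00918% of all features passed, or within males, where 3.38% did. The mean log2 ratios of Ccl12 were 0.70 in females (SE 0.19, adjusted p = 0.0908) and 0.71 in males (SE 0.19, adjusted p = 0.0763), both in limma. Its ratios were 1.25 and 0.14 in females and 1.08 and 0.33 in males. Within each sex the arrays differed in dye orientation. The SEs and p-values of this fit therefore leave out the spread that follows the dye. Those of Ccl8 were 0.80 in females (SE 0.23, adjusted p = 0.111) and 0.61 in males (SE 0.23, adjusted p = 0.23) in the same limma fit. Before adjustment 3 of the 4 chemokines had p under 0.05 and a higher level in mutant females (Ccl12, Ccl7 and Ccl8), against 10.8% of all features, and 3 in mutant males (Ccl12, Ccl2 and Ccl8), against 1.07%.

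Females minus males, the difference was -0.01 for Ccl12 (95% interval -0.60 to 0.59), -0.12 for Ccl2, 0.15 for Ccl7 and 0.19 for Ccl8. The difference was widest among the markers for Adgre1, at -0.30 (SE 0.28). The intervals reach 0.45 or more to either side of 0 for each of the 8 genes, apart from the upper bound of Adgre1 at 0.33, so that differences of that size lay within the intervals. Levels also differed between the sexes within a genotype, by description. Wild-type females stood below wild-type males for each chemokine, at a mean of 7.15 against 7.62 for Ccl12, 7.93 against 8.34 for Ccl2, 7.26 against 7.89 for Ccl7 and 7.61 against 7.93 for Ccl8. Both wild-type females were below both wild-type males for all 4 chemokines, and for 24.5% of all features. Females and males were on different arrays. For the 4 measured markers the difference of wild-type females minus wild-type males lay between -0.04 and 0.08.

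Ccr2, the main receptor on blood monocytes, had levels of 7.79, 7.73, 7.42 and 8.01 in mutant hearts, against 7.40, 7.24, 8.06 and 8.01 in wild-type hearts, and a mean log2 ratio of 0.06 (SE 0.22). Its ratios were 0.40 and 0.49 in females and -0.64 and 0.00 in males, and the difference between the sexes, 0.77, did not pass (adjusted p = 0.154 in limma). Ccr8, the receptor on which mouse Ccl8 acts, had a mean of -0.16 (SE 0.11). Cx3cr1, the fractalkine receptor of resident and patrolling cells, was at 0.04 (SE 0.14), and Ccr1 was not measured. Of 12 receptors measured among 17 looked for, 8 had a positive mean ratio, as had 44.6% of all features, and 0 passed, with a median of 0.05.

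Of 14 other chemokines measured among 23 looked for, 10 had a positive mean ratio, as had 44.6% of all features, and 0 passed. Their median was 0.08 and the highest value 0.29, for Ccl9 (SE 0.15). Ccl11, which lies between Ccl7 and Ccl12 and attracts eosinophils, had ratios of 0.56, -0.80, 0.41 and 0.14, a mean of 0.08 (SE 0.19). It too was higher with the mutant in Cy5 than with the mutant in Cy3 on these arrays. Cxcl12, a chemokine of stromal cells, had a mean of 0.15 (SE 0.14). Csf1, the main growth factor of macrophages, had a mean of 0.23 (SE 0.14), and its receptor Csf1r one of -0.01 (SE 0.12).

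Of 18 measured genes of resident macrophages, 13 had a positive mean ratio, 3 of them on all 4 arrays, and 0 passed. Their median was 0.09, with array medians of 0.28, 0.07, -0.10 and 0.16. Of all features 44.6% had a positive mean ratio and 2.34% a positive ratio on all 4 arrays. Lyve1, a hyaluronan receptor of one resident population, had ratios of 0.49, 0.45, 0.01 and 0.29, a mean of 0.31 (SE 0.13). Vsig4, a complement receptor, had 1.05, 0.07, 0.18 and 0.25, a mean of 0.39 (SE 0.18). Folr2, a folate receptor, had a mean of 0.13 (SE 0.15), and Timd4 was not measured. Of 18 general myeloid genes, 10 were positive and 0 passed between genotypes, with a median of 0.01, Lgals3, a galectin gene, being highest at 0.35 (SE 0.19).

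Genes of infiltrating monocytes had a median of 0.15, with 7 of 9 positive and 0 passing. Hp, the haptoglobin gene, led them with ratios of -0.57, 1.38, -0.01 and 2.44, a mean of 0.81 (SE 0.23), and thus without the order of the chemokines over the arrays. Like the atrial and adipocyte medians, its ratios were highest on arrays 2 and 4. Within males Hp passed, at 1.22 (SE 0.19, adjusted p = 0.0349 in limma), as did 3.38% of all features. Its ratios in males were -0.01 and 2.44, with opposite dye orientations, and this fit leaves out the spread that follows the dye. In the fit with no dye term 0 of 21792 features passed within males. Il1b, an inflammatory cytokine gene, was at 0.15 (SE 0.10), and the cytokine genes Tnf and Il6 were not measured. Of 11 measured genes of the NF-kappaB and inflammatory response 8 were positive and 0 passed, with a median of 0.10. Of 9 interferon response genes all were positive and 0 passed, with a median of 0.26 and array medians of 0.66, 0.43, -0.04 and 0.15. Beside these lists, 44.6% of all features had a positive mean ratio.

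**Figure D4:**
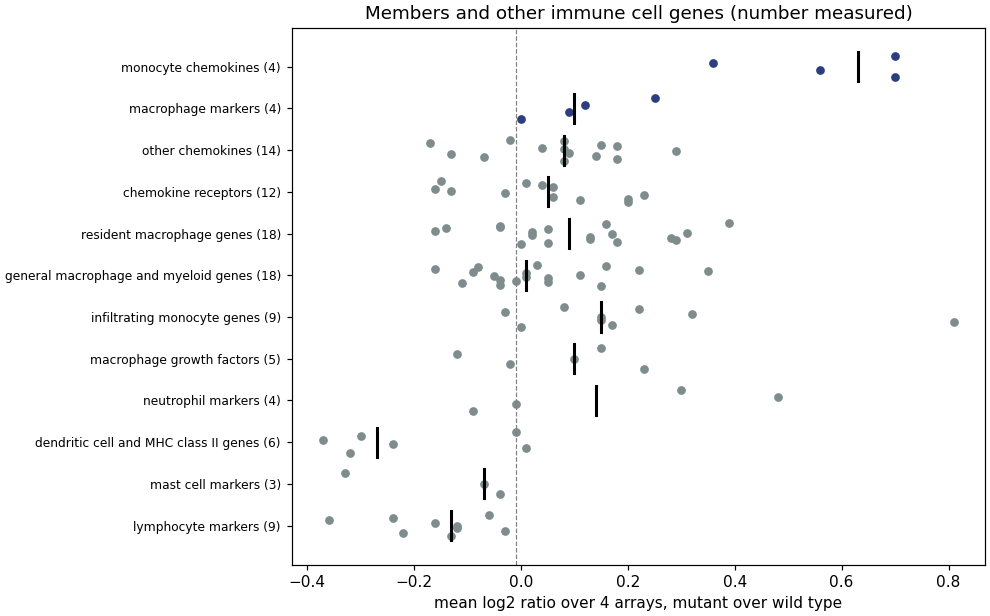
Mean log2 ratio of mutant over wild type over the 4 arrays (horizontal axis) for each measured gene of the 2 groups of members (blue) and of 10 lists of other immune genes (grey), with black bars for the list medians and a dashed line for the median of all features. The chemokine median, 0.63, lies to the right of the medians of the macrophage and infiltrating monocyte lists, which are between 0.01 and 0.15. Single genes overlap, the chemokines running from 0.36 to 0.70 and Hp, an infiltrating monocyte gene, standing at 0.81.

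Markers of other cell types that a piece of heart can hold were set beside these values. Neutrophil markers, 4 of 10 measured, summed to 60000 to 243000 in linear intensity in mutant hearts and 68300 to 280000 in wild-type hearts, and Ly6g was not measured. The probe of Csf3r carried nearly all of those sums, and the other 3 genes summed to 1420 to 4730 in mutant hearts and 1400 to 3080 in wild-type hearts. Of the 4 neutrophil markers 2 had a positive and 2 a negative mean ratio, with a median of 0.14. The highest was S100a8 at 0.48 (SE 0.16), and the lowest was Camp at -0.09. Lymphocyte markers, 9 of 12 measured, had 9 negative mean ratios and a median of -0.13. Among all 21792 features 12068 had a negative mean ratio. Genes of dendritic cells and MHC class II, 6 of 10 measured, had a median of -0.27. Fibroblast markers, 9 of 9 measured, had a median of 0.05 and summed levels of 85100 to 118000 in mutant hearts and 97000 to 122000 in wild-type hearts. Endothelial markers, 7 of 7 measured, had a median of 0.06 and mesothelial markers, 5 of 7 measured, one of -0.35.

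Some tissue markers differed far more between the hearts of a pair. Erythroid markers had medians of 2.50, -2.30, -1.0 and 0.17 on arrays 1 to 4, and atrial myocyte markers medians of -1.13, 1.47, 0.32 and 3.39. In both of these lists 6 of 7 genes were measured. The erythroid genes summed to 156000 to 1000000 in mutant hearts and 180000 to 925000 in wild-type hearts, and the atrial genes to 18400 to 578000 in mutant hearts and 12600 to 202000 in wild-type hearts. Adipocyte markers, 6 of 9 measured, had medians of -0.36, 0.74, -0.07 and 0.93 and summed to 54700 to 112000 in mutant hearts and 63500 to 82800 in wild-type hearts. Cardiomyocyte markers, 6 of 6 measured, had medians of 0.70, -0.39, 0.21 and -0.16 and summed to 843000 to 1390000 in mutant hearts and 937000 to 1380000 in wild-type hearts. The chemokine medians on the same arrays were 1.30, 0.06, 0.77 and 0.36, and the cardiomyocyte medians had the same order over the arrays. The part of blood, atrial tissue, fat, cardiomyocytes or other cell types in the chemokine values was not tested.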

How the data were processed

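Per the labels and file headers, the authors labelled 100 ng of RNA per heart, hybridised 4 2-colour arrays of 1 slide and read them with Agilent Feature Extraction 10.7.3.1, whose annotation used mm9. All hearts shared that slide, and no slide batch could be compared. Of the deposited intensity values, median spot and local background signals were used, which the file headers give as raw. Processed intensity values and the log2 values of the series matrix the authors deposited, centred per probe by a method not given in the sources used here, served as alternatives. The matrix ratios correlated with those of processed signals at 0.991 to 0.998 over the 4 arrays, which gave scale and direction. Its column medians ran from -0.01 to 0.06 in mutants and from -0.02 to 0.01 in wild type.

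Here background was corrected by normexp (offset 50) and ratios were normalized within arrays by loess in limma 3.58.1 under R 4.3.3, with control and non-uniform spots at weight 0. Repeated spots were averaged. Probes well above background in at least 4 of 8 hearts were kept, 28528 of 55681. Accessions were named through the RefSeq table of GRCm38.p6, which held 21865 of 23171 RefSeq accessions. The brightest probe stood for a gene, giving 21792 features. Mutant over wild-type ratios were fitted with lmFit and eBayes with a dye term, the array being the block, and with a genotype by sex term for the second comparison (2 and 1 residual degrees of freedom). Tests were 2-sided. Levels per heart came from separate channels after loess and Aquantile normalization. On each array the deviations of the 2 hearts from their genotype means correlated at -0.49, -0.11, -0.38 and 0.50, and the pairing comes from the labels. The fits were tested on simulated data.

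The genes and lists were chosen with earlier results of these data known. All members are named. From other lists, genes past the threshold or the up to 2 with the smallest p in either comparison could be named, with some receptors and macrophage genes whatever their values. Other genes named were chosen after their values were seen. A few genes that the rule would name are not reported here. The labels do not say whether hearts shared a litter. The p-values measure the spread between these hearts that is left after the dye term, moderated over all features by eBayes.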

Additional observations from a re-analysis of the deposited data

Results flagged for a closer look

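The Ccl2 level of mutant heart 2, 7.80, stood apart from the other 3 mutant hearts, the nearest of which was at 8.89. Its gap made up 0.857 of the range of the 4 mutant hearts, above Dixon's 95% critical value, which chance exceeds in about 1 in 20 groups. In all, 18 groups of 4 hearts were looked at, and this was the 1 above it. All 10 Ccl2 spots of its array had a negative ratio. The same heart was the lowest mutant for Ccl7, with a gap of 0.827 of the range, just under that critical value. It was also the lowest mutant for Ccl12 and Ccl8, with gaps of 0.60 and 0.531. Its Pus1 level of 7.56 was below all wild-type hearts.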

How the results depend on the processing

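Over 17 alternatives the mean ratio of each chemokine and of Mrc1 stayed positive and none of the 8 genes passed between genotypes. The chemokine median ran from 0.48 to 0.93 and the marker median from -0.08 to 0.27, both lowest values with an array left out. Ccl12 ran from 0.65 to 1.42, the highest with processed signals. Genotype ratios with an array left out come from the fit with a dye term, which weighs both dye orientations equally. Ccl12 and Ccl7 have no value when probes must be well above background in all 8 hearts. Without the replicate block 0 members passed, and with the array as a random replicate block 0 passed. In males 1 member passed with scale normalization. Leaving out an array gave 0 members in each comparison, chemokine medians of 0.48 to 0.75 and marker medians of -0.08 to 0.27. Ratios that changed sign were those of Adgre1 (0.00 with offset 16, 0.07 with processed signals and with the series matrix, 0.11 with median centring, 0.03 with the mean over probes, -0.16 to 0.16 with an array left out), Lyz2 (-0.06 to 0.29 with an array left out) and C1qa (-0.10 to 0.29). Median centring moved the median of all features to 0.08. Differences between sexes changed sign for Ccl12 (0.00 with no background correction, 0.04 with offset 16, 0.08 with processed signals, 0.03 with the series matrix, 0.06 with median centring), Ccl7 (-0.02 with processed signals, -0.06 with the series matrix), Mrc1 (-0.25 with median centring) and Lyz2 (-0.01 with offset 16, -0.22 with processed signals and with the series matrix, -0.20 with median centring, -0.05 with scale normalization). With an array left out, which also dropped the dye term there, the differences ran from -0.56 to 0.54 for Ccl12, -0.96 to 0.72 for Ccl2, -0.30 to 0.60 for Ccl7, -0.46 to 0.84 for Ccl8, -0.05 to 0.30 for Mrc1, -0.70 to 0.71 for Lyz2, -0.47 to 0.34 for C1qa and -0.85 to 0.25 for Adgre1. The cause was not tested. Over all features 2035 passed between sexes, and 0 with processed signals, the series matrix, median centring or no dye term. In males 737 passed, 1417 with scale normalization and 0 with no background correction, and in females 2 and 894 with scale normalization. Signals near background limit Ccl12 and Ccl7.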

Other observations

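In the immune lists Itgam, Csf3r, Ciita and Cd247 passed for the difference between sexes, as did 9.34% of all features. They were 1 of 18 general myeloid genes, 1 of 4 neutrophil markers, 1 of 6 genes of dendritic cells and MHC class II and 1 of 9 lymphocyte markers. None passed in the other immune lists. Itgam and Csf3r are genes of myeloid cells and neutrophils. Itgam was at 2.14, females minus males (adjusted p = 0.00421 in limma), and Csf3r at 3.16 (adjusted p = 0.00407 in limma). In the fit with no dye term 0 of 21792 features passed for this difference. The call of Itgam rested on 1 of 3 probes. The chosen probe, at a mean log2 level of 16.89, had ratios of 1.17 and 0.99 in females and -1.52 and -0.62 in males. The 2 dimmer probes, at 7.42 and 7.73, had ratios from -0.27 to 0.29 on the 4 arrays. Csf3r was read by 1 probe, at a mean log2 level of 17.14, with ratios of 1.71, 1.42, -2.26 and -0.94. Whether these very bright probes of Itgam and Csf3r read only the RNA of these genes was not tested.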
